A study of Mus musculus with 5 samples.

Results

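DRIP-seq peaks, which mark candidate R-loop sites, were examined where they carry a listed peak of the negative elongation factor NELF and no listed peak of RNA polymerase II (RNAPII), in primary mouse mammary epithelial cells. They overlap a NELF-A or NELF-B peak by 1 bp or more and overlap no RNAPII peak. They number 247 of 10031 DRIP peaks, or 2.46% (95% Wilson interval 2.18 to 2.78%). They were chosen by the presence or absence of listed peaks, so their overlap with the 3 other targets is a description and was not tested.

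The cells came from thoracic and inguinal glands of virgin mice aged 6 to 8 weeks. The labels give the strain as mixed and no genotype or treatment. Of 5 samples, 4 had a peak list: DRIP (an antibody against RNA-DNA hybrids), NELF-A, NELF-B and RNAPII. DRIP after RNase H, which degrades the RNA of a hybrid, was not analysed here, so the RNase H sensitivity of these sites was not checked. The lists name no genes, so the epithelial label could not be set against marker genes.

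An R-loop forms when nascent RNA pairs with its DNA template and leaves the other DNA strand single. NELF is a complex that binds RNAPII soon after initiation and holds it paused near the gene start. NELF-A and NELF-B are 2 of its subunits, and NELF-B is also known as COBRA1, a binding partner of BRCA1. R-loops are known to form at gene starts and ends where RNAPII pauses, so all 3 are usually described together at the same promoters.

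Positions are in mm9. Each peak carries the authors' own whole-number score, which has no stated unit and rises with peak width, so it was also divided by width and given per 250 bp. Scores were compared within a list only. The lowest score per 250 bp in a list was 18.8 (DRIP), 51.8 (RNAPII), 4.12 (NELF-A) or 3.25 (NELF-B). Each target had 1 list, so there is no spread between replicates and no p-value. Intervals cover counting over peaks alone, and sequencing depth is unknown. Absence of RNAPII means absence of a listed peak, not absence of the polymerase.

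The 247 sites fell into 2 kinds, according to whether their NELF peak itself reached an RNAPII peak. At 95 sites (38.5%, interval 32.6 to 44.7%) it did: NELF lay across the end of an RNAPII peak, and the DRIP peak began at or near the end of RNAPII. These are called edge sites here. At the other 152 (61.5%, 55.3 to 67.4%) no NELF peak under the DRIP peak overlapped RNAPII, and these are called off-RNAPII sites. The rule did not ask whether the NELF peak meets RNAPII, but it lowers how often that happens, because the stretch of NELF under these DRIP peaks holds no RNAPII. Under the 247 sites lay 236 NELF-A peaks, and 94 of these (39.8%, 33.8 to 46.2%) overlapped RNAPII, against 54.1% in the whole list. For NELF-B it was 9 of 65 (13.8%, 7.46 to 24.3%), against 77.8%. The number of sites depends on how peak ends are set: the rule found 415 with every peak cut to 500 bp around its centre, and 124 with no RNAPII peak allowed within 5 kb. The edge share was 24.3% with 500 bp peaks, 14.8% with the upper 50% of each list by score and 7.65% with peaks within 1000 bp counted as shared. By its construction, that last setting drops every DRIP peak within 1000 bp of RNAPII, and with them all 95 edge sites. Its share describes other sites.

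The 247 DRIP peaks had a median width of 750 bp (750 to 1000 bp) and a total length of 316.25 kb. Of them, 21 (15 off RNAPII and 6 at an edge) were 3 kb or wider, as were 6.24% of all DRIP peaks. The edge sites reached a score of 506 and the off-RNAPII sites a score of 1914.

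The subunits divided unevenly between both kinds. NELF-A without NELF-B marked 85 edge sites and 98 off-RNAPII sites. Both subunits marked 10 edge sites and 38 off-RNAPII sites. NELF-B without NELF-A marked 16 sites, and every one of those was off RNAPII. Most of these 16 had a NELF-B score of 7, the lowest in the list. Of all DRIP peaks, 15.9% overlapped NELF-A and 7.68% overlapped NELF-B.

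The edge sites shared an arrangement. That RNAPII stops before the DRIP peak follows from the rule. An edge site also needs a single NELF peak that overlaps both DRIP and RNAPII. The gap between them therefore cannot exceed the width of that NELF peak, so short distances are favoured by the definition. Of the 95 DRIP peaks, 81 (85.3%, 76.8 to 91.0%) touched the RNAPII peak with no base between them, and the widest gap was 1000 bp. Among all 7716 DRIP peaks that overlapped no RNAPII, 3.36% touched an RNAPII peak. Those were not chosen by a NELF peak that reaches RNAPII, so these shares are not like for like. The NELF peak overlapped the DRIP peak by 250 bp, the smallest overlap seen, at 73 of the 95 sites. It overlapped the RNAPII peak by a median of 750 bp (interval 750 to 1000 bp). Its centre lay on RNAPII at 83 sites, in the space between RNAPII and DRIP at 12, and on DRIP at 0. The DRIP peak ran past the outer end of NELF at 84 sites (88.4%), by a median of 500 bp (250 to 500 bp) over all 95. At most edge sites the order along the chromosome was thus RNAPII with NELF, then a short stretch of NELF and DRIP, then DRIP by itself.

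A second DRIP peak often lay on the other side. Within 3000 bp on the RNAPII side of the DRIP peak's inner end, 51 of 95 edge sites (53.7%, 43.7 to 63.4%) had another DRIP peak. Within 3000 bp of its outer end, 12 did (12.6%, 7.38 to 20.8%). At 31 sites the neighbouring RNAPII peak itself carried another DRIP peak (32.6%, 24.0 to 42.6%), against 23.7% (22.6 to 24.8%) of all RNAPII peaks with NELF-A, and these intervals overlap. DRIP cover was 3.16% of sites in the 250 bp next to the inner end, where NELF-A covered 100% and RNAPII 85.3%. Sites were placed by that end, so only a touching second DRIP peak could cover the next 250 bp. NELF-A cover there follows from the choice of edge sites. These values are therefore not findings. DRIP cover was 34.7% at 1375 bp into the RNAPII side.

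**Figure D1:**
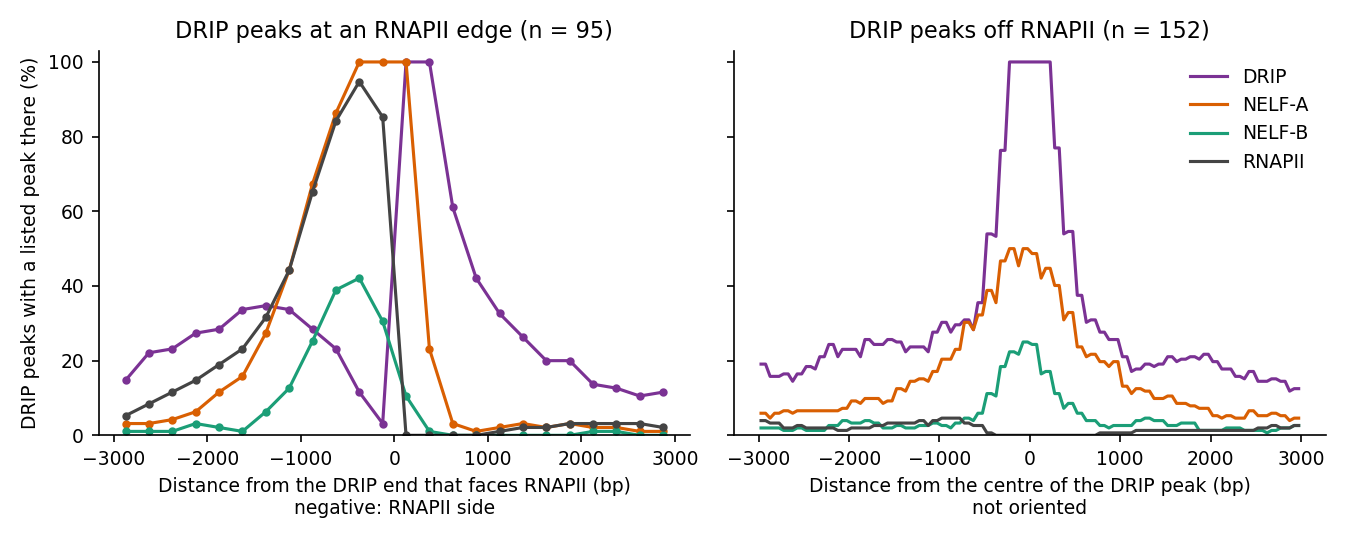
Share of sites (%) covered by a listed DRIP, NELF-A, NELF-B or RNAPII peak. On the left, 95 edge sites are placed by the DRIP end that faces RNAPII, with the RNAPII side negative; RNAPII cover is highest, at 94.7%, 375 bp before that end and NELF-A cover is 100% from there to 125 bp past the end, and another DRIP peak covers 34.7% of sites at 1375 bp on the RNAPII side. On the right, 152 off-RNAPII sites are placed by the DRIP centre, where NELF-A and NELF-B peak and RNAPII stays under 5% throughout. On the left, NELF-A cover at the DRIP end and low DRIP cover just before it follow from how sites were chosen and placed.

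NELF at the edge sites overlaps RNAPII by definition. That its scores were in the range of other NELF on polymerase is therefore a description and not a finding. The 94 NELF-A peaks that joined an RNAPII peak to one of these DRIP peaks were 1250 bp wide at the median and scored 45 (interval 41 to 49). NELF-A peaks on RNAPII with other DRIP peaks had 51 (48 to 54), and those on RNAPII without DRIP had 35 (34 to 35). Their median widths were 1250 and 1000 bp, and score rises with width. Per 250 bp, the median score was 8 (7.33 to 8.75) for the 94. It was 9.43 (9.2 to 9.8) on RNAPII with other DRIP peaks and 8 (7.83 to 8) on RNAPII without DRIP. A NELF peak that joins RNAPII to DRIP also has to be wide enough to reach both. NELF-B was present at 53.2% (43.2 to 62.95%) of the 94, against 61.7% (59.0 to 64.4%) of NELF-A peaks on RNAPII with other DRIP peaks and 47.8% (46.3 to 49.2%) of those on RNAPII without DRIP, and its interval overlaps both. Most of these NELF-B peaks stopped short of the DRIP peak, since 10 edge sites overlapped NELF-B. The 94 RNAPII peaks beside edge sites scored 249.5 at the median (216 to 326), against 300 (291 to 309) for all 5583 RNAPII peaks with NELF-A, and these intervals overlap.

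At single edge sites, NELF peaks near the top of their list lay beside DRIP peaks of moderate rank. On chromosome 8, a DRIP peak from 11554251 to 11555250 had a score of 80, rank 3070 in the DRIP list. It touched RNAPII and shared 250 bp with a NELF-A peak from 11555001 to 11558750, whose score of 298 ranked 12 in the NELF-A list. On chromosome 15, a DRIP peak from 96119001 to 96120250 with a score of 100 lay 500 bp from RNAPII, and its NELF-A peak scored 163 (rank 62). On chromosome 6, a DRIP peak from 72390251 to 72391750 with a score of 123 met NELF-A of score 134 (rank 110) and NELF-B of score 34 (rank 96). All 5 of the highest NELF-A scores among the 247 sites were at edge sites, the fifth being on chromosome 1, where a DRIP peak of score 40 from 95374251 to 95374750 met NELF-A of score 105 (rank 228). In the first 3 places the NELF peak was among the highest of its list and the DRIP peak was not.

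Another pair of edge sites ran against that form. On chromosome 19, the whole DRIP peak from 46574001 to 46576000, with a score of 194, lay inside a NELF-A peak that reached from 46574001 to 46579000 with a score of 125. On chromosome 2, the widest edge site, from 122174751 to 122180000, had a DRIP score of 506 (rank 307) and a NELF-A score of only 18 (rank 6811).

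The off-RNAPII sites lay at distances from RNAPII whose intervals overlapped those of DRIP peaks alone. Their median gap to the nearest RNAPII peak was 53.9 kb (interval 29.2 to 84.8 kb), against 46.5 kb (43.8 to 50 kb) for the 7469 DRIP peaks that overlapped none of the 3 targets. Over 100 kb from any RNAPII peak lay 36.8% (29.6 to 44.7%) of them and 37.5% (36.4 to 38.6%) of DRIP peaks alone. Of all DRIP peaks outside RNAPII, 37% did. Under 1 kb, counting touching peaks, lay 13 of the 152 (8.55%), and 9.49% of all DRIP peaks outside RNAPII. By subunit, the median gap was 32.8 kb (16.8 to 60.0 kb) with NELF-A alone, 79.5 kb (27.5 to 140 kb) with both subunits and 492 kb (55.5 to 824 kb) with NELF-B alone. The 3 intervals overlap. The share over 100 kb from RNAPII was 68.8% (44.4 to 85.8%) with NELF-B alone, 47.4% (32.5 to 62.7%) with both subunits and 27.6% (19.7 to 37.1%) with NELF-A alone, and the intervals of NELF-B alone and NELF-A alone do not overlap. Sites with NELF-B alone rest mostly on NELF-B peaks of the lowest listed score. The off-RNAPII sites are what is left once the edge sites, none over 1 kb from RNAPII, are set aside. DRIP peaks alone were not divided in that way. Over all 247 sites, 43.3% (37.3 to 49.6%) lay under 1 kb from RNAPII and 22.7% (17.9 to 28.3%) over 100 kb. The shares of all DRIP peaks outside RNAPII were 9.49% and 37%.

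**Figure D2:**
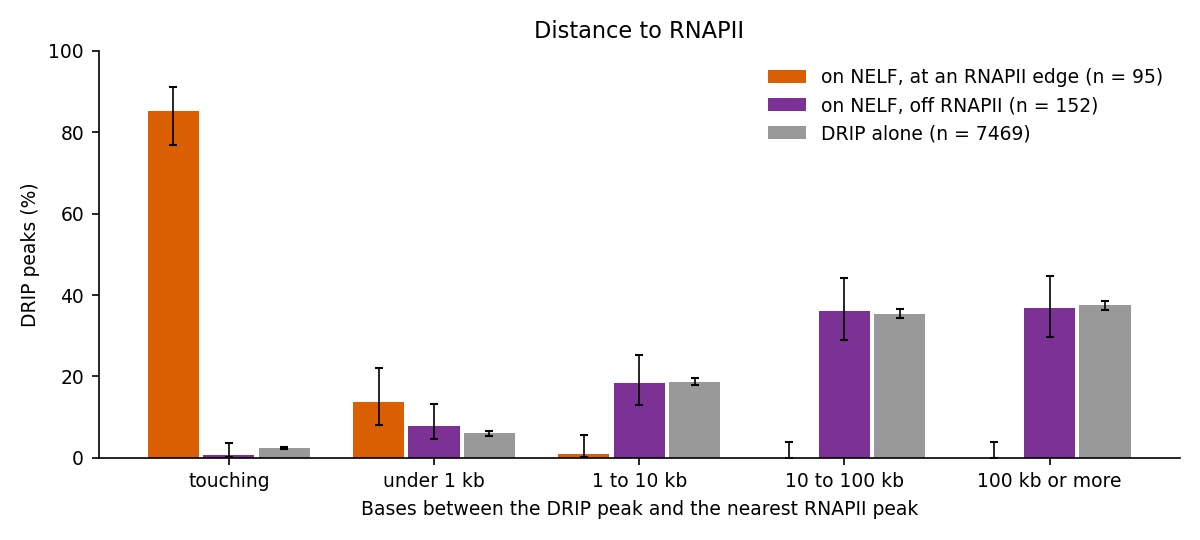
Share of DRIP peaks (%) in each class of distance to the nearest RNAPII peak; bars are shares and lines are 95% Wilson intervals. Of the edge sites, 85.3% touch RNAPII, while the off-RNAPII sites and the DRIP peaks alone have overlapping intervals in every class.

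Of the groups compared, DRIP score per 250 bp was highest where both NELF subunits met away from RNAPII. The 38 off-RNAPII sites with both subunits had a median DRIP score per 250 bp of 33.5 (interval 27.6 to 40). It was 24.2 (20.4 to 31.5) at the 16 sites with NELF-B alone, 20.5 (20 to 20.8) at the 98 with NELF-A alone and 20.2 (20 to 20.5) at the 95 edge sites. DRIP peaks on NELF and RNAPII had 22.5 (22 to 22.9), those on RNAPII without NELF 20.7 (20.5 to 21.0) and DRIP peaks alone 20 (20 to 20.2). The interval of the 38 sites with both subunits lay wholly above that of DRIP on NELF and RNAPII, and that of NELF-B alone did not. The DRIP peaks on NELF and RNAPII were not split by subunit. Sites with both subunits off RNAPII were therefore not compared with sites with both subunits on RNAPII. With peaks within 1000 bp counted as shared, which also admits DRIP peaks that only lie near NELF, the median with both subunits was 21.7 (20.8 to 27.3).

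The top of the DRIP list shows the same order. By score per 250 bp, the top 10% of DRIP peaks held 29 of the 38 sites with both subunits (76.3%, 60.8 to 87.0%), 6 of 16 with NELF-B alone, 10 of 98 with NELF-A alone and 7 of 95 edge sites. By construction this top class holds 10% of all DRIP peaks, so NELF-A alone and the edge sites were near the background. Of DRIP peaks on NELF and RNAPII, 29.9% (27.5 to 32.4%) were in it. The top 1% held 8 of the 247 sites (3.24%, 1.65 to 6.26%), of which 7 had both subunits and 1 had NELF-B alone. It held 3.41% (2.57 to 4.51%) of DRIP peaks on NELF and RNAPII, and 1.01% of all DRIP peaks. By total score, the top 10% held 36.8% (23.4 to 52.7%) of the 38 sites with both subunits. It held 32.4% (29.9 to 34.9%) of DRIP peaks on NELF and RNAPII, and these intervals overlap.

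The higher value was present among DRIP peaks of equal width from 750 bp upwards, but not at 500 bp, where the 4 off-RNAPII sites with both subunits had between 19 and 21.5 per 250 bp and all DRIP peaks a median of 20. Among DRIP peaks of 1000 to 1500 bp, the median score per 250 bp was 37.5 (27 to 48, n = 18) off RNAPII with both subunits and 20.8 (20.2 to 21.8, n = 24) with NELF-A alone. It was 21.5 (21.2 to 22, n = 373) on NELF and RNAPII and 20.8 (20.6 to 20.8, n = 1234) for DRIP alone. At 750 bp the median with both subunits was 32.7 (26.7 to 50.3, n = 8), against 20.3 (20 to 20.3, n = 1500) for DRIP alone. Above 1500 bp, the interval with both subunits, 34.7 (23.3 to 91.7, n = 8), overlapped the 27.6 (26.6 to 28.5, n = 583) on NELF and RNAPII and did not overlap the 22.7 (22.3 to 23.1, n = 581) for DRIP alone. Median total scores were 143 with both subunits, 106.5 with NELF-B alone, 69.5 with NELF-A alone, 59 at edge sites, 125 on NELF and RNAPII and 45 for DRIP alone.

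**Figure D3:**
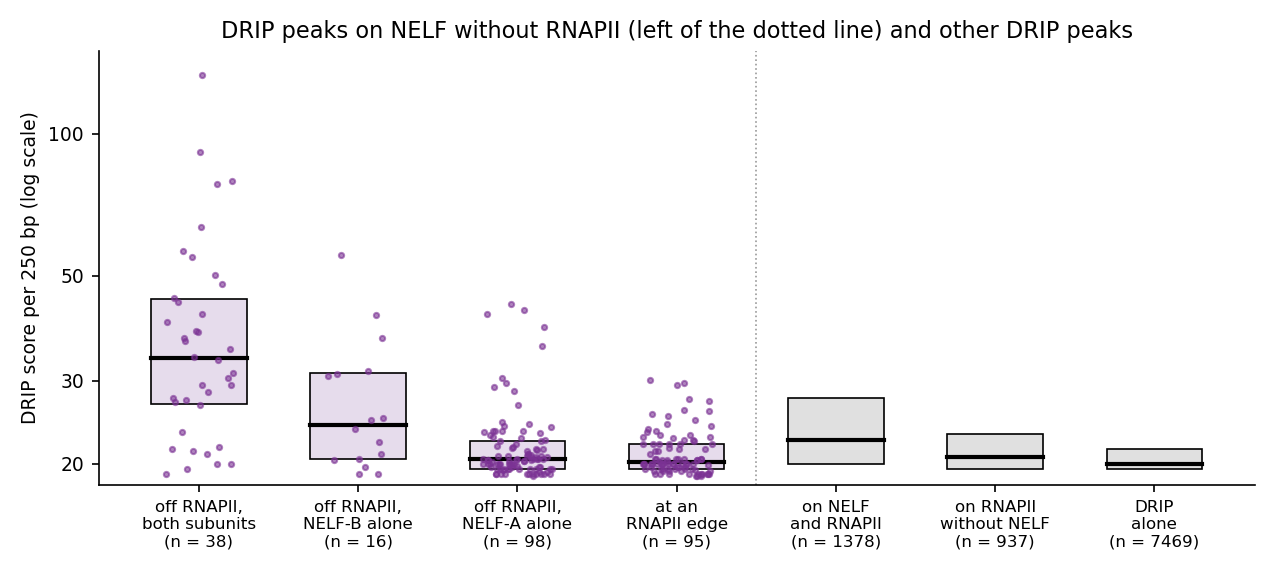
DRIP score per 250 bp on a log axis; boxes span the middle 50% of peaks, thick lines are medians, and points are single sites (drawn only for DRIP peaks on NELF without RNAPII). The 38 off-RNAPII sites with both subunits have a median of 33.5 and reach 133, while the other groups have medians between 20 and 24.2.

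The fit of NELF and DRIP peaks was described by their ends and centres. A site with both subunits has at least 2 NELF peaks that could lie inside the DRIP peak, its DRIP peak is wider (median 1000 bp, and 750 bp with NELF-A alone), and NELF-B peaks are narrower than NELF-A peaks (750 and 1000 bp over the lists). All of these favour such a fit with both subunits, so the counts are not compared. With both subunits, a NELF peak lay wholly inside the DRIP peak at 32 of 38 off-RNAPII sites (84.2%, 69.6 to 92.6%). With NELF-B alone this was so at 13 of 16, and with NELF-A alone at 29 of 98 (29.6%, 21.5 to 39.3%). The centres of both peaks were a median of 125 bp apart with both subunits and 375 bp apart with NELF-A alone. Both ends matched within 250 bp at 23 of 38 sites with both subunits and at 25 of 98 with NELF-A alone. Edge sites are left out here, since NELF that reaches RNAPII cannot lie inside a DRIP peak that does not.

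NELF-A peaks that lay off RNAPII under these sites had a NELF-B peak more often than NELF-A peaks off RNAPII without DRIP, and their NELF-B scores were higher relative to NELF-A. A NELF-B peak overlapped 46 of the 142 such NELF-A peaks (32.4%, 25.2 to 40.5%), against 10.9% (10.1 to 11.8%) of the 4775 NELF-A peaks off RNAPII without DRIP. The share was no lower elsewhere on DRIP or on RNAPII, with 48.1% (30.7 to 66.0%) of the 27 NELF-A peaks off RNAPII whose DRIP peak met RNAPII and 47.8% (46.3 to 49.2%) of NELF-A peaks on RNAPII without DRIP. None of these shares was matched on NELF-A score, whose median was 19 (15 to 21) at the 142 and 15 (15 to 16) at the 4775. At the 46, the NELF-B score was a median of 0.50 (0.39 to 0.69) of the NELF-A score. The median was 0.24 (0.19 to 0.26) at the 50 such peaks of edge sites, 0.34 (0.32 to 0.36) off RNAPII without DRIP, and 0.24 (0.24 to 0.25) on RNAPII without DRIP. A ratio at least as high was found at NELF-A peaks that lay off RNAPII under a DRIP peak that itself met RNAPII, with 0.86 (0.50 to 1.48, n = 13), so a high ratio was not particular to the sites described here. The 2 scores have no common unit, so the ratio has meaning only between groups. Low NELF-A scores force a high ratio, because no listed NELF-B peak scored under 7. Within NELF-A scores of 20 to 39, the ratio was 0.5 or more at 10 of 22 such peaks under these sites (45.5%, 26.9 to 65.3%) and at 11 of 303 off RNAPII without DRIP (3.63%, 2.04 to 6.38%). The medians of these groups, 0.45 (0.30 to 0.70) and 0.31 (0.29 to 0.32), had intervals that overlap narrowly. The ratio was that high at 37 of 707 on RNAPII without DRIP (5.23%, 3.82 to 7.13%). Over all NELF-A peaks with NELF-B, 8.01% reached this ratio. At the 46 under these sites the share was 50% (23 of 46). It was 16.8% with every peak cut to 500 bp and 33.3% with the upper 50% of each list. Both settings find the sites anew, so these 2 shares are not over the same 46 peaks. With scores of 40 or more, 2 of 9 peaks under these sites reached it, and the median of 0.17 (0.16 to 0.72) was not distinguishable from the 0.18 (0.18 to 0.20) off RNAPII without DRIP.

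**Figure D4:**
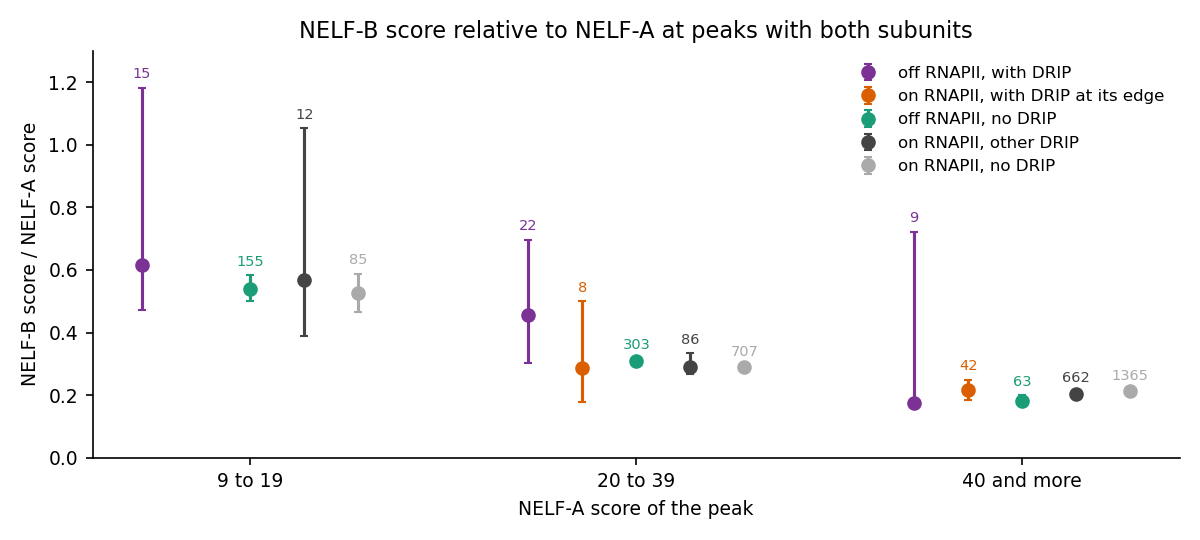
Median NELF-B score divided by NELF-A score, with 95% intervals and the number of NELF-A peaks above each, in 3 classes of NELF-A score. In the class of 20 to 39, the 22 peaks off RNAPII under the sites described have a median of 0.45 and those off RNAPII without DRIP a median of 0.31; in each class these 2 intervals overlap. The 13 peaks off RNAPII whose DRIP peak met RNAPII are not drawn.

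NELF-B often lay without NELF-A at these sites, as it did off RNAPII in general. Under all 247 sites lay 56 NELF-B peaks that met no RNAPII, and 40 of them (71.4%, 58.5 to 81.6%) overlapped NELF-A. That is close to the 69.0% (65.7 to 72.1%) of NELF-B peaks off RNAPII without DRIP, and below the 98.7% (97.6 to 99.3%) of NELF-B peaks on RNAPII with other DRIP peaks. Over the whole NELF-B list the share was 92.5%.

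Seen from NELF, DRIP accompanied few of the peaks that lie off RNAPII. A DRIP peak overlapped 3.42% (169 of 4944, 2.95 to 3.96%) of NELF-A peaks off RNAPII and 22.7% (21.6 to 23.8%) of those on RNAPII. For NELF-B the shares were 8.60% (75 of 872, 6.92 to 10.6%) off RNAPII and 23.3% (21.9 to 24.9%) on RNAPII. Whole-list shares were 13.9% and 20.1%. The off-RNAPII counts include 27 NELF-A and 19 NELF-B peaks whose DRIP peak met RNAPII elsewhere along its length. For NELF-A the lower share off RNAPII was present in each class of NELF-A width, for example at 1000 to 1500 bp, with 3.70% (2.85 to 4.80%) off and 20.5% (19.2 to 21.9%) on RNAPII. For NELF-B it was present at 500 bp, with 6.98% (5.30 to 9.13%) off and 15.6% (13.6 to 17.7%) on RNAPII. It was also present at 750 bp, with 9.55% (5.88 to 15.2%) off and 21.1% (18.7 to 23.6%) on RNAPII. At 1000 to 1500 bp it was not, with 10 of 25 peaks (40%, 23.4 to 59.3%) off and 37.1% (33.6 to 40.6%) on RNAPII.

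Among the NELF peaks of highest score per 250 bp, the shares off and on RNAPII had overlapping intervals. Of NELF-B peaks in the top 5% by score per 250 bp, 20 of 36 off RNAPII (55.6%, 39.6 to 70.5%) overlapped DRIP, and 58.8% (51.5 to 65.7%) on RNAPII did. Of those 20, 14 were under the sites described here and the rest under DRIP peaks that met RNAPII. Of those in the lower 50%, 5.84% (4.21 to 8.05%) off RNAPII and 17.5% (15.5 to 19.6%) on RNAPII overlapped DRIP. NELF-A peaks of the top 5% were rare off RNAPII, where 6 of 16 (37.5%, 18.5 to 61.4%) overlapped DRIP, beside 43.9% (39.7 to 48.1%) on RNAPII.

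**Figure D5:**
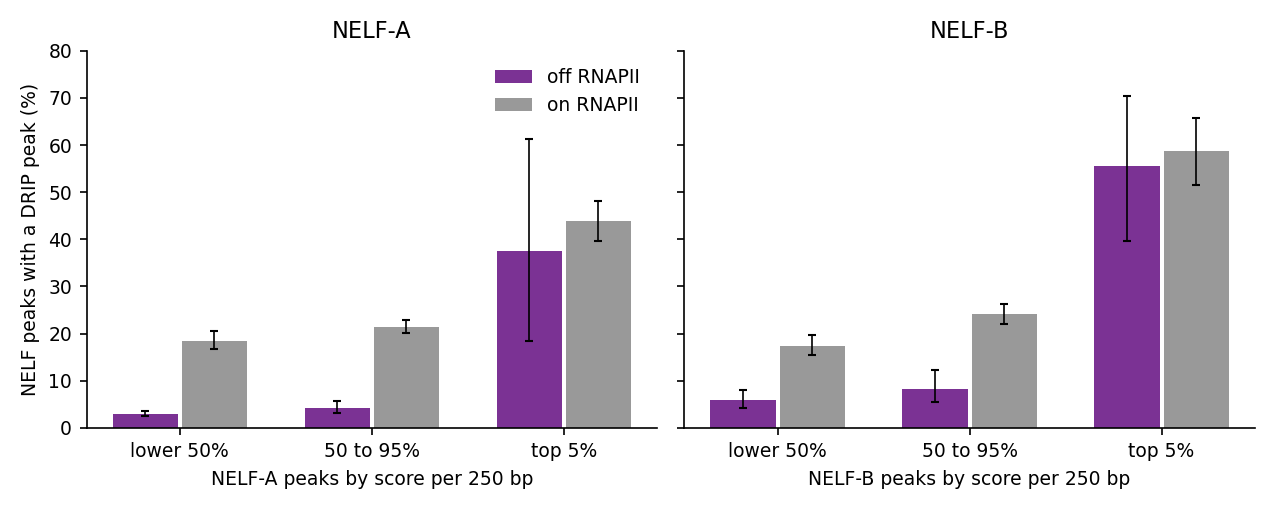
Share of NELF peaks with a DRIP peak (%), off and on RNAPII, in 3 classes of NELF score per 250 bp; lines are 95% Wilson intervals. Off RNAPII the share is under 10% below the top 5% of each list and reaches 37.5% (NELF-A) and 55.6% (NELF-B) within it.

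The 10 highest DRIP scores were all at off-RNAPII sites, 3 with NELF-A alone and 7 with both subunits. The 3 with NELF-A alone were long DRIP peaks. On chromosome 6, a peak from 47601251 to 47613500, the widest of the 247 at 12250 bp, had a score of 1914 (rank 23) and met NELF-A of score 30 over 500 bp at its end, 55.5 kb from RNAPII. On chromosome 1, a peak from 85266251 to 85277500 had a score of 1596 (rank 37), NELF-A of score 14 and no RNAPII within 429.75 kb. On chromosome 3, a peak from 90387251 to 90393250 had a score of 589 and 3 NELF-A peaks, the highest of score 14. The largest overlap with a single NELF-A peak was 500 bp, 500 bp and 750 bp at these 3 sites, a small part of each DRIP peak.

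Of the 7 with both subunits, 4 had over 50 per 250 bp. On chromosome 17, a peak from 13743001 to 13746750 had a score of 1376, 91.7 per 250 bp (rank 23), with a highest NELF-A score of 54 and a highest NELF-B score of 13. On chromosome 6, a peak from 3150501 to 3152000 had 133 per 250 bp (rank 9), with NELF-A (36) and NELF-B (21) in peaks of identical ends. Also on chromosome 17, a peak from 3079001 to 3083250 had 56.4 per 250 bp, and on chromosome 11 a peak from 3025501 to 3030500 had 54.8. RNAPII was 539 kb, 1303 kb, 31 kb and 1.25 kb away from these 4 sites, in the order given.

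The other 3 had 27.3, 29.4 and 31.2 per 250 bp, below the 39.1 and 35.5 of the sites on chromosomes 6 and 1 with NELF-A alone. They were the peaks on chromosome 2 from 30679001 to 30684500 (score 600), on chromosome 4 from 62159001 to 62164000 (587) and on chromosome 12 from 116852001 to 116856250 (530), in the order of these values. Their NELF-A scores were 27, 21 and 9, and their NELF-B scores 7, 10 and 14.

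Of the 5 highest NELF-B scores, the fifth shared by 2 sites, 1 was at the edge site on chromosome 6 given above and the rest were at off-RNAPII sites. On chromosome 12, from 3109501 to 3110500, NELF-B scored 57 (rank 33) beside NELF-A at 58 and DRIP at 78.2 per 250 bp. Also on chromosome 12, from 75904501 to 75905750, NELF-B scored 36 and NELF-A 37 in peaks of identical ends. On chromosome 10, from 21862001 to 21863250, NELF-B scored 39 and NELF-A 54, again with identical ends. On chromosome 19, from 45724251 to 45725250, NELF-B scored 27 (rank 173) and NELF-A 20. The last score was shared by a site on chromosome 3 from 8245501 to 8246750, where NELF-A scored 18. Scores of both subunits are given side by side and have no common unit.

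Several of the strongest sites lie at the start of a chromosome, which in the mouse is the centromeric end. Of the 38 off-RNAPII sites with both subunits, 6 (15.8%, 7.44 to 30.4%) lay within 250 kb of the first base that any list covers on their chromosome, as did 3 of 16 with NELF-B alone, 3 of 98 with NELF-A alone and 2 of 95 edge sites. Of all DRIP peaks, 0.638% did. Without such sites the median DRIP score per 250 bp off RNAPII with both subunits was 30.8. A single site of the 247, that on chromosome 11 from 3025501, lay in 1 of 16 regions in which 3 or more lists hold one of their strongest peaks, meaning a score per base in the top 1% or among the 10 highest scores. What repeated sequence contributes to these scores was not tested.

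The sites farthest from RNAPII were on the X chromosome and on chromosome 8. On the X chromosome, a DRIP peak from 84483501 to 84484250 with NELF-A at 10 lay 6883 kb from the nearest RNAPII peak, and one from 109484001 to 109485250 with both subunits and 63.6 per 250 bp lay 5182.5 kb away. On chromosome 8, 3 sites lay between 19943251 and 19985250, at least 3601.5 kb from RNAPII. Those from 19943251 to 19946000 and from 19982501 to 19983500 had NELF-B alone, at 7 and 8, and that from 19984251 to 19985250 had NELF-A alone, at 20.

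Sites just inside and just outside the rule had similar scores. The 82 sites that touched an RNAPII peak had a median DRIP score of 60.5, and the 117 whose largest NELF overlap was 250 bp had 60. Just outside, 168 DRIP peaks on NELF overlapped RNAPII by 250 bp and had a median score of 63, and 207 DRIP peaks off RNAPII touched a NELF peak without overlap and had 60. The median width was 750 bp in all 4 groups. Since peak ends lie on a 250 bp grid, the 82 sites that touch RNAPII are a single grid step from overlapping it.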

How the data were processed

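RNAPII, NELF-A and NELF-B ChIP-seq and DRIP-seq peak lists were used. BWA and the mm9 build are named in the submitters' processing notes. The sources used here do not give the peak caller, its threshold, any input control or the depth. Per the labels' titles, the RNAPII and DRIP lists each cover 2 libraries, and the NELF-A and NELF-B titles name no second one. The NELF libraries had 18 PCR cycles, against 15 for RNAPII and DRIP, and less ChIP DNA than RNAPII. Differences between targets cannot be told apart from these differences in preparation. The deposited score is the authors' whole number per peak, with no stated unit; it was used to rank and describe peaks within a list. Peaks were kept as deposited and shared when they overlapped by 1 bp or more. Shares carry 95% Wilson intervals and medians exact binomial 95% intervals; no p-value was computed, because peaks of 1 list are not replicates. The overlap code was checked on simulated peaks. The sites, groups and comparisons were chosen with earlier results of these data known; classes of NELF-A score, of NELF score per 250 bp and distance to the chromosome start were chosen after their values were seen. Named sites are the 10 highest DRIP scores, the 5 widest, the 5 highest NELF-A and NELF-B scores and the 5 farthest from RNAPII. No mm9 genome or annotation was used, so genes and sequences are not given. Analyses used Python 3.11.15, pandas 2.3.3, numpy 2.4.6 and scipy 1.17.1.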

Additional observations from a re-analysis of the deposited data

How the results depend on the processing

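No paired analysis was possible because each target has 1 list, and for the same reason no replicate could be left out. Of 130 recomputed values, 81 stayed within the interval of the main value (a count, within 1.5 times of it) and 49 moved; the cause was not tested beyond what each setting's construction shows. None moved when touching peaks were joined, or without the X chromosome, the regions of highest signal or the sites within 250 kb of the first listed base (the last chosen after seeing the data, as were all values of the NELF-B to NELF-A ratio). These settings left 240, 239, 246 and 233 of the 247 sites, in that order, so values had little room to move. Most of the 81 unmoved values come from them. With an overlap of 50% of the shorter peak, NELF-A alone held 65% of sites and NELF-B alone 13.08%, the median DRIP score was 87, edge sites were 47.69% and sites under 1 kb from RNAPII 52.31%. With peaks within 1000 bp counted as shared, the median DRIP score was 60, or 21.71 per 250 bp off RNAPII with both subunits, edge sites were 7.649%, sites over 100 kb away 32.86%, and the off-RNAPII peaks with DRIP were 5.947% (NELF-A) and 10.7% (NELF-B). With the upper 50% of each list by score, NELF-A alone held 65.34% and both subunits 25%, and the median DRIP score was 122.5. Edge sites were 14.77%, and 18.75% lay under 1 kb and 49.43% over 100 kb from RNAPII. The off-RNAPII peaks with DRIP were 4.959% (NELF-A) and 10.98% (NELF-B). Under the sites, NELF peaks off RNAPII had median scores of 37 (NELF-A) and 14 (NELF-B). Under the main rule these were 19 and 9.5. Keeping the upper 50% raises such medians by construction. A ratio of 0.5 or more was found at 33.33%. With every peak cut to 500 bp, which makes score per 250 bp follow total score, the count was 415. NELF-A alone held 48.92%, both subunits 31.57% and NELF-B alone 19.52%. The median score was 105, or 78.25 per 250 bp off RNAPII with both subunits. Edge sites were 24.34%, and 53.25% lay under 1 kb and 10.12% over 100 kb away. The off-RNAPII peaks with DRIP were 4.527% (NELF-A) and 11.78% (NELF-B). Under the sites, NELF peaks off RNAPII had median scores of 31 (NELF-A) and 13.5 (NELF-B), and 16.81% reached the ratio. With no RNAPII within 5 kb, 124 sites had NELF-A alone in 61.29%, both subunits in 27.42% and NELF-B alone in 11.29%, a median score of 86.5 and 45.16% over 100 kb away. Without edge sites, the 152 left had 64.47%, 25% and 10.53% in the same order, a median score of 85.5, 8.553% under 1 kb and 36.84% over 100 kb. Shares wholly fixed by a setting's construction were not recomputed. The edge share with peaks within 1000 bp counted as shared was kept, although that setting drops all edge sites of the main rule and describes others.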

Other observations

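The 247 sites were found on all 20 chromosomes with peaks. Chromosome 11, which holds 11.9% of all DRIP peaks, held 20 of the sites (8.10%, interval 5.30 to 12.2%). Chromosomes 2 and 7 held 24 each (9.72%, 6.62 to 14.05%), against 6.71% and 6.41% of all DRIP peaks. Chromosome 15 held 7 (2.83%, 1.38 to 5.73%), against 5.35% of all DRIP peaks.

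Most sites had no other of the 247 sites close by. Within 10 kb of another of these sites lay 31 of them. DRIP peaks outside the 247 are not in that count, and 51 of 95 edge sites had another DRIP peak within 3000 bp on the RNAPII side. A further DRIP peak touched 23 sites, and at 5 of these that DRIP peak overlapped RNAPII. The same counts over all DRIP peaks are not given here, so none of these is set against a background.

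Spearman's rho between DRIP and NELF-A scores per 250 bp was 0.07 over the 231 sites with NELF-A and 0.17 over the 136 of them off RNAPII. For NELF-B it was 0.47 over the 54 off-RNAPII sites with NELF-B. Over the same 38 off-RNAPII sites with both subunits it was 0.32 for NELF-A and 0.41 for NELF-B. Sites are not replicates, and the lists share the cells and the genome, so these values describe the lists only.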
